A study of Mus musculus with 29 samples.

Results

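Calorie restriction (CR) without training was compared to ad libitum feeding without training in the gastrocnemius, the large calf muscle of the mouse, referred to here as skeletal muscle (SkM). The members are the 7 SkM libraries of the sedentary mice, 3 of the CR group and 4 of the control group, chosen by their sample labels from 29 libraries in all, and all genes were tested. The mice were wild-type (WT) male C57BL/6J animals, young adults when the diet began, and food was lowered step by step in the CR group until it stood clearly under free intake. All groups were fasted for some hours before the tissues were taken, and the clock time of harvest is not given in the sources used here. The other SkM libraries, of treadmill-trained mice with free food (EX, 4 libraries) or with CR (CREX, 3 libraries), and the brown adipose tissue (BAT) libraries of the CR (4) and control (3) groups serve only as comparison. Each library is taken as 1 mouse, nothing in the sources says how mice were spread over cages or extraction days, and the p-values measure the spread between these libraries.

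The table gives RSEM expected counts per gene symbol, which were rounded to whole numbers. The 7 libraries held 23050918 to 23425284 counts over 17318 to 18126 detected genes. Values are given as CPM (counts in relation to the library total) scaled with TMM factors, always in the order of the replicate numbers (control 1 to 4, CR 1 to 3). Log2 fold changes are CR against control from edgeR's quasi-likelihood test with their standard errors, with n = 4 and n = 3. Adjusted p-values are Benjamini-Hochberg values over all 13173 genes tested, and a gene counts as differentially expressed (DEG) if it passes both 0.05 on that p and a change of 1.5-fold. Over the tested genes the log2 fold changes had a median of 0.00499, so that changes are read against a baseline close to 0.

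Restricted food intake lowers insulin and leptin and raises glucocorticoids, the steroid hormones of fasting. In muscle, glucocorticoids act through the glucocorticoid receptor, and low insulin releases the FOXO transcription factors from their block by the kinase AKT. Both routes are known to shift muscle from glucose use and protein synthesis towards amino acid release. Collagen turnover, mitochondrial content, fibre type and the circadian clock of muscle are further known targets of food intake.

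The labelled tissue fitted its markers. The list of muscle fibre markers was detected in full (10 of 10 genes tested), with a summed level of 109330 to 120331 CPM in the controls and 128489 to 174457 CPM in the CR mice. Neutrophil, T cell and B cell markers were close to the detection limit, and none of these 3 lists had a gene abundant enough to be tested. In a principal component analysis of the 500 most variable genes, the first component held 71% of the variance, with the controls at 19.4 to 21.3 and the CR libraries at -29.8 to -23.6. The second component held 10.7%, and the library CR 1 stood apart from the other CR libraries on it.

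Transcripts known from other tissues are given first, since liver genes lead the list of upregulated genes. All 11 hepatocyte markers that could be tested, of 13 in the list, were upregulated, with a median log2 fold change of 5.67. Markers near 0 in the controls passed the filter on low counts only through the CR libraries, so this share was partly fixed by the filter. In CREX against EX, under the same filter, 3 members of the list could be tested. Alb, the serum albumin of the liver, stood at 0.184, 3.21, 0.859 and 0.208 CPM in the controls and at 27.9, 153 and 144 CPM in the CR libraries (log2 fold change 6.62 ± 0.91, adjusted p = 0.00413). The summed level of the hepatocyte list was 9.38 to 12.7 CPM in the controls and 116, 329 and 374 CPM in the CR libraries. CR 1 was the lowest of the 3 CR libraries, control 2 was the highest control for Alb, and every CR library lay above every control.

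The ratio to Alb stayed within a narrow range in the 3 CR libraries for the liver-specific Apoa2 (0.178, 0.191 and 0.220), Ttr (0.0913, 0.108 and 0.0972) and Ahsg (0.0882, 0.0847 and 0.106). It was wider for Apoe (2.87, 0.711 and 0.795), Trf (0.750, 0.181 and 0.369) and Cyp2e1 (1.74, 0.215 and 0.404), which other cell types also make. Of the 37 genes with a log2 fold change above 5, 36 had their lowest CR value in CR 1, as for Alb. The 10 non-overlapping upregulated genes with the highest fold changes were Hamp, Cyp4a14, Cyp2a5, Hpd, Rgn, Cyp3a11, Cps1, Mat1a, Uox and Ces1c, all known as liver genes. Hamp, the iron hormone hepcidin, had 0 counts in the 4 controls and 1.10, 7.63 and 4.89 CPM in the CR libraries, at least 32.4-fold above the level of 3 counts in a control library. Cyp4a14 (0.658, 7.67 and 4.01 CPM) and Rgn (0.483, 1.82 and 1.57 CPM) also had 0 counts in every control and stood at least 29.4-fold and 9.20-fold above that level. Hamp (log2 fold change 9.65, adjusted p = 0.0569) and Cyp4a14 (9.58, adjusted p = 0.0817) were no longer called without CR 3. Both also lost the call without a filter on low counts. CR 1 was the lowest CR library for 187 of all 563 upregulated DEGs, which include genes not known as liver genes, such as Abca1, Nrip1 and Deptor below. The part of liver tissue in these values was not tested.

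Adipocyte transcripts followed another order. Adipoq, the adipocyte hormone adiponectin, stood at 1.75, 0, 0.452 and 0.956 CPM in the controls and 9.92, 0.869 and 13.4 CPM in the CR libraries (adjusted p = 0.0654). Cidec, a lipid droplet protein, showed 1.89, 0, 1.13 and 0.749 against 15.1, 0.632 and 12.6 CPM (adjusted p = 0.0760). CR 1 and CR 3 were high for both and CR 2 was inside the range of the controls. CR 2 was the lowest CR library for 156 of all 563 upregulated DEGs, so this order is not particular to adipocyte genes. Of 8 adipocyte markers tested, 1 was called, Car3, which muscle fibres also express at a high level, and the summed list stood at 1336 to 1537 CPM in the controls and 1969.7 to 3146 CPM in the CR mice. Car3 was among the upregulated DEGs with the largest CPM difference, and Adipoq and Cidec were a small part of the sum. The sum is therefore no measure of adipocytes alone. Cfd, an adipocyte protease, was likewise high in CR 1 and CR 3 (61.9, 4.07 and 71.98 CPM) and stood at 0.233 to 10.3 CPM in the controls (adjusted p = 0.0943). Adipoq, Cidec and Cfd were called without CR 2 and with the replicate number as a block. The part of fat tissue in the results below was not tested.

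**Figure D1:**
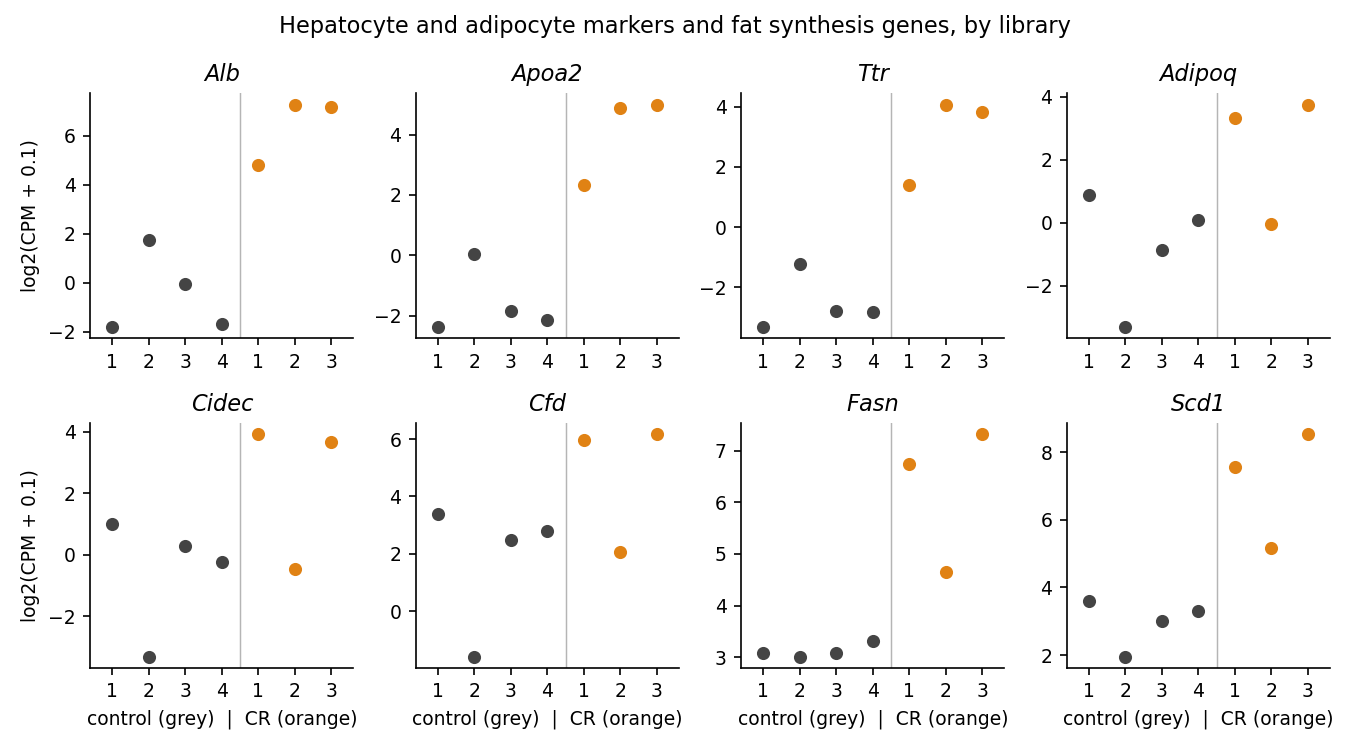
Level of 3 hepatocyte markers (Alb, Apoa2, Ttr), 3 adipocyte markers (Adipoq, Cidec, Cfd) and 2 enzymes of fat synthesis (Fasn, Scd1) in each of the 7 libraries, as log2(CPM + 0.1) on the vertical axis, 1 point per library. The hepatocyte markers are high in all 3 CR libraries and lowest among them in CR 1, while among the CR libraries the adipocyte markers and both enzymes are lowest in CR 2.

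In total, 1264 of the 13173 genes tested were DEGs, with 563 upregulated (4.27%) and 701 downregulated (5.32%). Of these, 541 and 687 had groups that do not overlap in any library, which was true of 27.5% of all tested genes. Counts of called members in the lists below are to be read beside the 4.27% and 5.32% of all genes. Earlier results of these data were known when the lists were chosen, which limits these counts as evidence. Changes above 2-fold were found for 305 upregulated and 295 downregulated genes, and changes above 4-fold for 118 and 39. The upregulated side had a long tail of genes near 0 in the controls, since 27 upregulated DEGs had at most 3 counts in every control library, against 2 downregulated DEGs with at most 3 counts in every CR library. With an adipocyte score as a covariate, an alternative chosen after the data had been seen, 554 DEGs were found, and 72 of the 198 DEGs named here were no longer called. Of these 72, 58 kept a change above the fold minimum. The score includes Car3, and the summed list of the same markers did not overlap between the groups. A call lost with this score, here and below, is therefore no measure of fat tissue.

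**Figure D2:**
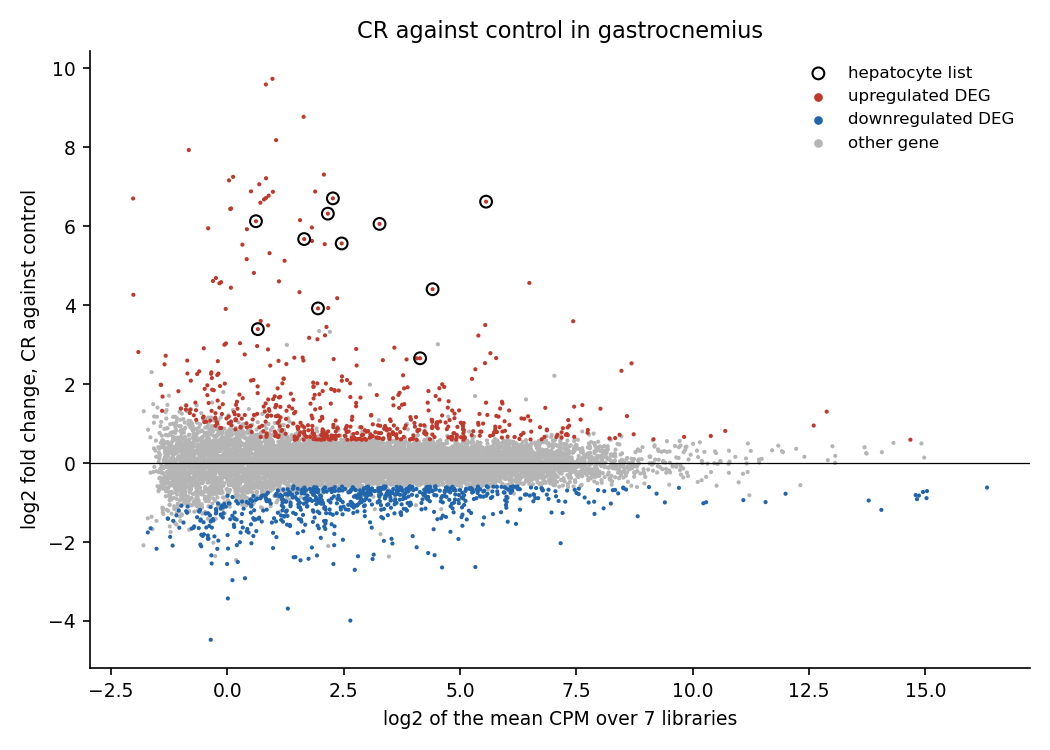
Each point is 1 of the 13173 genes tested, with the log2 of the mean CPM of the 7 libraries on the horizontal axis and the log2 fold change of CR against control on the vertical axis. The 563 upregulated DEGs are red, the 701 downregulated DEGs are blue, and the tested members of the hepatocyte list are circled in black and lie above 2 on the vertical axis in the left part of the plot.

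Glucocorticoid receptor targets were the pathway list with the most upregulated members. The lists were chosen with earlier results of these data known, so this rank and the counts below are no independent evidence. Of 31 members tested, 18 were upregulated and 0 downregulated, with a median log2 fold change of 1.08, where 4.27% of all genes were upregulated. The receptor gene itself, Nr3c1, was not called (39.8, 52.7, 45.4 and 51.1 against 59.3, 59.4 and 58.2 CPM, adjusted p = 0.0824). Tat, a liver enzyme of the list, was near 0 in the controls and followed the order of Alb (0.746, 6.52 and 4.93 CPM).

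Fkbp5, a co-chaperone that dampens the receptor and lies at chr17:28398753-28486149 (GRCm38), stood at 15.5, 13.1, 14.6 and 14.1 CPM in the controls and 119, 79.7 and 95.6 CPM in the CR mice. The groups did not overlap, with a log2 fold change of 2.78 ± 0.15 (adjusted p = 9.52e-06). Doc2b, a calcium sensor of vesicle fusion, rose from 0.276, 0.279, 0.407 and 0.291 to 8.20, 4.82 and 6.11 CPM, and this change was larger on the log2 scale (4.33 ± 0.26, adjusted p = 2.05e-05). Glul, the glutamine synthetase, was at 181, 106, 109.6 and 145 CPM in the controls and 927, 644 and 764 CPM in the CR mice (2.53 ± 0.21, adjusted p = 0.000129). All 3 genes had every CR library above every control, and in each of them CR 1 was the highest library.

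Zbtb16 (log2 fold change 1.51 ± 0.23), Tsc22d3 (1.43 ± 0.26) and Sgk1 (0.95 ± 0.24) were upregulated as well. Sgk1, a kinase of the insulin and glucocorticoid pathways, stood at 146, 87.9, 73.6 and 158 CPM against 209.6, 239 and 223 CPM (adjusted p = 0.0272), and controls 1 and 4 were the higher controls. The same 2 controls were higher for Tsc22d3 (144, 74.97, 69.7 and 118 CPM), Ddit4 (17.3, 3.02, 2.44 and 13.9 CPM) and Cebpd (23.4, 7.63, 8.14 and 21.9 CPM). In Ddit4, an inhibitor of mTOR complex 1, the CR libraries reached 150.0, 36.9 and 69.99 CPM (3.23 ± 0.77, adjusted p = 0.0321), and in the transcription factor Cebpd 164, 58.1 and 40.7 CPM (2.53 ± 0.61, adjusted p = 0.0337). Sgk1 was no longer called without CR 1, CR 2, CR 3, control 2 or control 3 (log2 fold change 0.78 to 0.98, adjusted p = 0.0569 to 0.0826), Ddit4 without CR 1, CR 3 or control 4 (log2 fold change 2.53 to 3.49, adjusted p = 0.0540 to 0.146) and Cebpd without CR 1, CR 2, control 2, control 3 or control 4 (log2 fold change 1.68 to 2.76, adjusted p = 0.0528 to 0.127). Zbtb16, Tsc22d3, Sgk1, Ddit4 and Cebpd were not called with the adipocyte score as a covariate, nor Cebpd with the slow fibre score, nor Sgk1, Ddit4 or Cebpd without a filter on low counts.

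Promoter sequences were read for genes of this list and of the clock, since both lists are defined by factors that bind known motifs. The RefSeq table of promoters (GRCm38.p6, 250 bases before to 50 after each start) matched 26 of the glucocorticoid targets and 12 of the clock output genes. The full glucocorticoid receptor palindrome (AGAACA, 3 bases of any kind, then TGTTCT), searched after the data had been seen and reading the same on both strands, was present in 3 of 32851 promoters, 1 of them in Sgk1. The E-box CACGTG, the site of the clock activators and also a palindrome, was present in 7.15% of all promoters and 9.74% of those of the genes tested, in 5 of 37 promoters of the glucocorticoid targets and in 5 of 16 promoters of the clock outputs. The D-box TTANGTAA was present in 2.32% of all promoters and in 1 clock output promoter, and the SREBP site TCACNCCAC in 1.24% of all promoters, both searched on both strands. The 250 bases before the start are shown for 5 DEGs of these lists with a match, in lower case with the matches in capitals. A match is a description of letters and no evidence of binding, and the share of all promoters is over the whole window.
Sgk1 (chr10:21993640-21993889, plus strand, 1 of 6 starts listed for the gene, the palindrome beginning 189 bases before the start and an E-box 246 bases before it): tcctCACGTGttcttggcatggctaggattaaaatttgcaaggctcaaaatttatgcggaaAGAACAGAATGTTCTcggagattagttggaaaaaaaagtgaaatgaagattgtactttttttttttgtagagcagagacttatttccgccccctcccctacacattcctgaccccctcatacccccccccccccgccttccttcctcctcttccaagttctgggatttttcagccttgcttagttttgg
Fkbp5 (chr17:28486150-28486399, minus strand, E-box 169 bases before the start): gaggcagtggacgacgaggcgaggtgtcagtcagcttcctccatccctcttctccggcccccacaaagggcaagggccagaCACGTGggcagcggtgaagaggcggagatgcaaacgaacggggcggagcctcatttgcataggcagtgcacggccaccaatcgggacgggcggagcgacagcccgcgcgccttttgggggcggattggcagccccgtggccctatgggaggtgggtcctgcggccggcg
Klf15 (chr6:90462326-90462575, plus strand, E-boxes 228 and 172 bases before the start): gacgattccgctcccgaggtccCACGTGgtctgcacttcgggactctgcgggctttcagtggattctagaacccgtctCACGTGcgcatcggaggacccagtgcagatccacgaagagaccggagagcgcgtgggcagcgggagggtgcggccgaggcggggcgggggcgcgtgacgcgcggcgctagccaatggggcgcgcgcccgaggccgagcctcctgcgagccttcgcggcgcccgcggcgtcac
Ciart (chr3:95882229-95882478, minus strand, E-boxes 116, 58 and 44 bases before the start): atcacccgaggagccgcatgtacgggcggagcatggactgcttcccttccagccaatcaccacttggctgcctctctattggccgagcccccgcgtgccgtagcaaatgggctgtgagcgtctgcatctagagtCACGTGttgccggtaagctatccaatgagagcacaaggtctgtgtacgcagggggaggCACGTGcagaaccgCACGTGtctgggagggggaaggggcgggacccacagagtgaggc
Bhlhe41 (chr6:145865421-145865670, minus strand, E-box 153 bases before the start): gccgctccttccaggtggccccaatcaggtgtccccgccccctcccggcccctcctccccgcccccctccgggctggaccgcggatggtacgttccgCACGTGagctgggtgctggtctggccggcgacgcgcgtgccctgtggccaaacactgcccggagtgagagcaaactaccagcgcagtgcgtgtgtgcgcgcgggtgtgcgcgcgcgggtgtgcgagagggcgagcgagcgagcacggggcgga

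The list of atrophy genes, FOXO factors and ubiquitin ligases had 9 upregulated and 2 downregulated members of 35 tested, and 6 of the 9 are also in the list of glucocorticoid targets. Foxo1, the FOXO factor that drives fasting genes in muscle (chr3:52268337-52350109, GRCm38), stood at 12.97, 13.6, 14.7 and 16.3 CPM in the controls and 80.7, 77.2 and 65.3 CPM in the CR mice. This was among the smallest p-values of all genes (2.37 ± 0.12, adjusted p = 9.52e-06). Its relative Foxo3 rose from 14.8, 15.9, 15.3 and 19.3 to 36.9, 31.8 and 32.4 CPM (1.05 ± 0.12, adjusted p = 0.000561), and Foxo6 moved the other way, from 7.18, 8.14, 5.56 and 6.78 to 0.965, 3.003 and 2.79 CPM (-1.60 ± 0.30, adjusted p = 0.00650). No library of one group reached into the other for these 3 genes, and Foxo4 was not called (adjusted p = 0.886). Foxo6 was not called with the adipocyte score as a covariate.

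Gadd45a, a stress gene linked to muscle atrophy, rose (1.01 ± 0.13, adjusted p = 0.00130). Klf15, a glucocorticoid-induced regulator of amino acid breakdown, rose as well, from 43.1, 43.001, 41.1 and 40.9 to 97.1, 64.6 and 73.8 CPM (0.91 ± 0.14, adjusted p = 0.00257). The cell cycle inhibitor Cdkn1c was at 20.7, 17.3, 19.99 and 13.6 CPM against 46.5, 34.3 and 28.1 CPM (1.03 ± 0.19, adjusted p = 0.00649). The classical ubiquitin ligases of atrophy were not called. Fbxo32 (atrogin-1) stood at 195, 361, 267 and 318 CPM in the controls and 558, 179.7 and 231 CPM in the CR mice (adjusted p = 0.770), and Trim63 (MuRF1) at 136, 158, 150 and 159 against 485, 121 and 172 CPM (adjusted p = 0.219). For both, CR 1 was the highest of the 7 libraries and CR 2 the lowest. Klf15 and Cdkn1c were not called with the adipocyte score as a covariate.

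No constitutive proteasome subunit was called among 31 tested (26 higher and 5 lower in CR, median log2 fold change 0.18). In the autophagy and lysosome list, 2 of 32 members fell and 0 rose, a share close to the 5.32% of all genes. They were Wipi1, a protein of the early autophagosome (-0.64 ± 0.15, adjusted p = 0.0194), and Gabarapl1, a member of the LC3 family (-0.60 ± 0.16, adjusted p = 0.0303). Gabarapl1 stood at 68.4, 73.5, 55.9 and 61.8 CPM against 49.9, 32.8 and 44.9 CPM, and every CR library lay below every control. Wipi1 was no longer called without CR 1, CR 2 or control 2 (log2 fold change -0.49 to -0.65, adjusted p = 0.0189 to 0.0563) and Gabarapl1 without CR 2, CR 3, control 1 or control 2 (log2 fold change -0.45 to -0.65, adjusted p = 0.0594 to 0.0915). Wipi1 was not called with the adipocyte score as a covariate, nor Gabarapl1 with the slow fibre score.

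Genes of insulin and growth factor signalling changed in both directions, 7 up and 2 down of 33. Pik3r1, the regulatory subunit of phosphoinositide 3-kinase, was at 9.15, 11.4, 10.04 and 12.4 CPM in the controls and 27.6, 43.2 and 57.6 CPM in the CR mice (1.995 ± 0.21, adjusted p = 0.000419). Grb14, an adaptor that inhibits the insulin receptor, fell from 34.9, 33.2, 26.3 and 27.8 to 7.37, 9.48 and 11.7 CPM (-1.68 ± 0.16, adjusted p = 0.000322). Tbc1d1, which restrains glucose transporter traffic, rose (0.71 ± 0.17, adjusted p = 0.0187), and so did Socs2, a target of growth hormone (0.76 ± 0.19, adjusted p = 0.0240), although control 2 (7.03 CPM) lay just above CR 1 (6.93 CPM). The growth factor Igf1 itself was not called (6.07, 6.56, 6.38 and 5.53 against 4.69, 5.69 and 8.06 CPM, adjusted p = 0.979). Tbc1d1 was no longer called without CR 3, control 2 or control 3 (log2 fold change 0.56 to 0.73, adjusted p = 0.0512 to 0.0696) and Socs2 without CR 2, CR 3, control 1, control 3 or control 4 (log2 fold change 0.59 to 0.75, adjusted p = 0.0551 to 0.102). Tbc1d1 was not called with the adipocyte score as a covariate, nor Tbc1d1 or Socs2 in 1 fit over all SkM groups, nor Socs2 with the slow fibre score.

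Of 30 genes of nutrient sensing, 4 rose and 1 fell, next to 4.27% and 5.32% of all genes. Slc7a8, a transporter of neutral amino acids, stood at 10.4, 12.1, 9.86 and 11.4 CPM against 32.1, 34.8 and 27.5 CPM (1.53 ± 0.12, adjusted p = 7.19e-05). Deptor, an inhibitor of mTOR, rose from 30.5, 41.2, 39.04 and 45.4 to 61.5, 86.8 and 73.4 CPM (0.92 ± 0.15, adjusted p = 0.00345), and Eef2k, the kinase that slows translation elongation, from 38.1, 40.3, 37.6 and 46.5 to 66.6, 74.96 and 66.8 CPM (0.78 ± 0.11, adjusted p = 0.00159). The gamma subunits Prkag3 and Prkag2 of AMP-activated kinase moved in opposite directions, up (0.60 ± 0.13) and down (-0.68 ± 0.13). All 5 genes had groups that did not overlap. Prkag3 was no longer called without CR 2 or control 4 (log2 fold change 0.45 to 0.57, adjusted p = 0.0342 to 0.0495). Prkag2 was not called with the adipocyte score as a covariate, nor Prkag3 in 1 fit over all SkM groups, nor Prkag3 with the slow fibre score. Prkag3 also lost its call with the replicate number as a block.

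**Figure D3:**
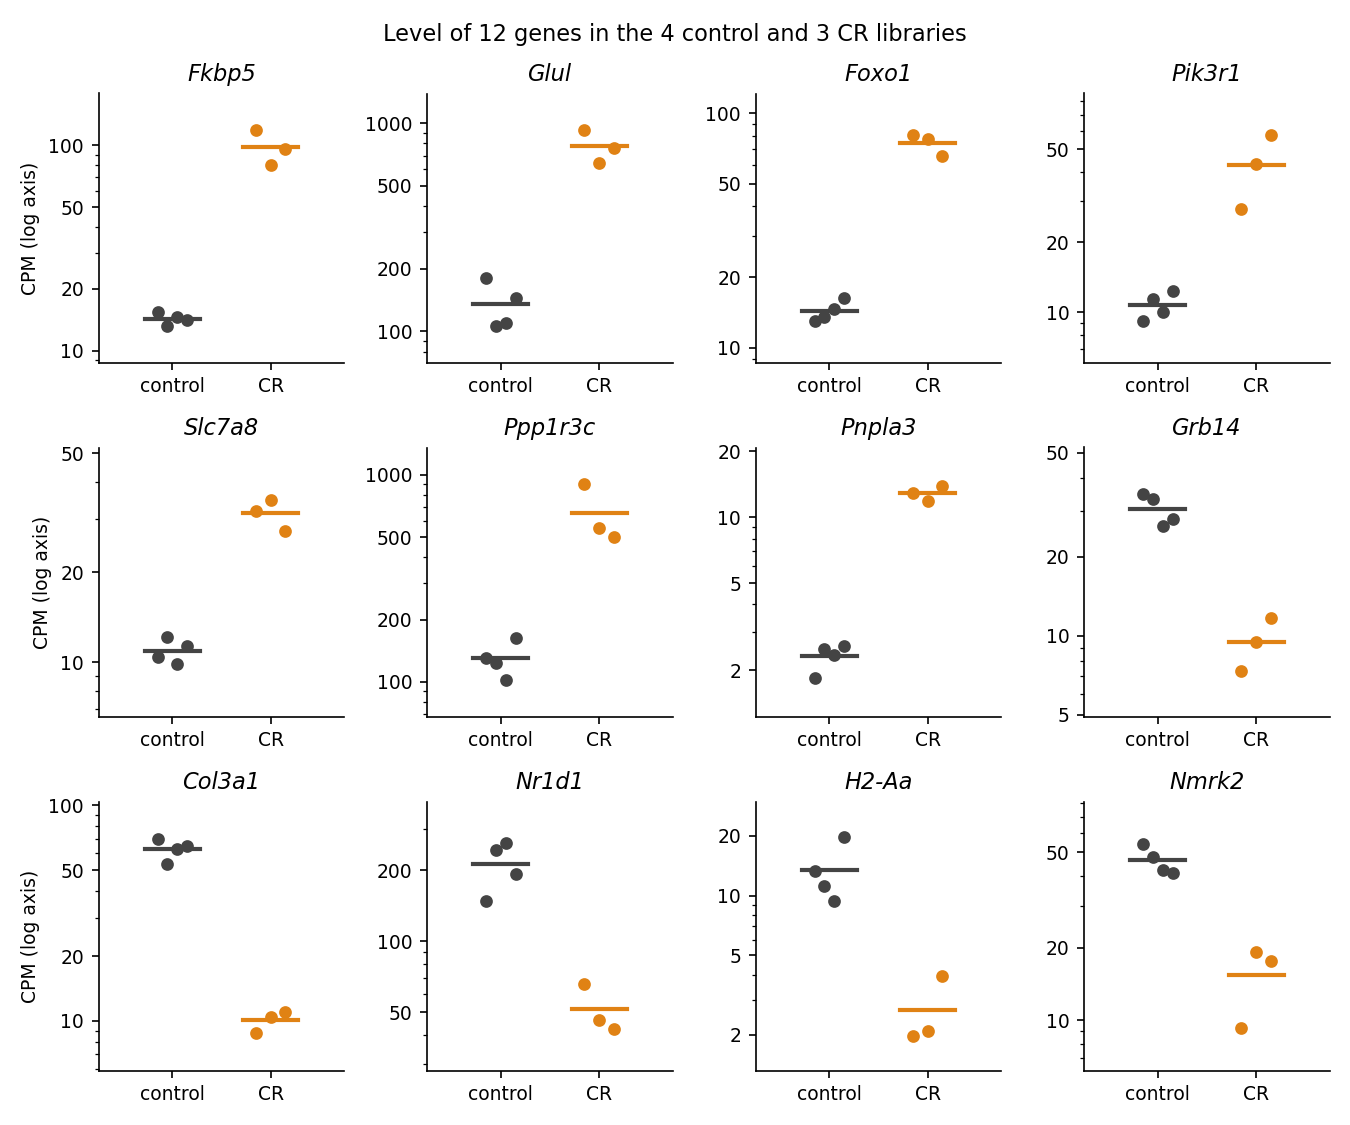
Level of 12 genes in each of the 7 libraries, CPM on a log axis, with 1 point per library and a bar at the group mean. Fkbp5, Glul, Foxo1, Pik3r1, Slc7a8, Ppp1r3c and Pnpla3 lie above the controls in every CR library, and Col3a1, Nr1d1, H2-Aa, Nmrk2 and Grb14 lie below them in every CR library.

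Amino acid metabolism had 8 upregulated and 4 downregulated members of 37. Besides Glul, the alanine transaminase Gpt2 rose from 105, 111, 111 and 124 to 329, 299 and 304 CPM (1.47 ± 0.11, adjusted p = 7.19e-05). Prodh, the first enzyme of proline breakdown, rose from 7.31, 6.28, 6.92 and 6.57 to 18.4, 16.1 and 21.2 CPM (1.46 ± 0.12, adjusted p = 0.000139). Gnmt, a liver-rich methyltransferase, rose from 0.874, 1.26, 0.950 and 0.832 to 4.30, 5.93 and 7.48 CPM (2.60 ± 0.23, adjusted p = 0.000166), with its lowest CR value in CR 1 as for Alb. Amd1, an enzyme of polyamine synthesis, fell from 679, 1009, 849 and 901 to 356, 439 and 494 CPM (-0.997 ± 0.16, adjusted p = 0.00349), and reads may be shared with its near copy Amd2. In all of these the CR libraries lay on one side of the controls. None of 21 genes of branched-chain amino acid breakdown was called, with a median log2 fold change of -0.05 and a range of -0.41 to 0.31. Amd1 was not called with the adipocyte score as a covariate.

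In glycogen metabolism, 3 of 27 genes rose and 1 fell. Ppp1r3c, which targets protein phosphatase 1 to glycogen and favours its synthesis, stood at 130.1, 124, 102 and 163 CPM in the controls and 902, 555 and 499.5 CPM in the CR mice (2.34 ± 0.23, adjusted p = 0.00032). Stbd1, a glycogen-binding protein, rose (0.75 ± 0.18, adjusted p = 0.0193), whereas Ugp2, which makes the glucose donor of glycogen synthesis, fell from 608, 673, 629.6 and 595 to 492, 347 and 387 CPM (-0.61 ± 0.14, adjusted p = 0.0195). Pygl, the liver form of glycogen phosphorylase, rose from a low level (1.10, 0.698, 0.814 and 0.457 to 2.59, 1.46 and 3.78 CPM, 1.77 ± 0.36, adjusted p = 0.0103). CR 2 was its lowest CR library, as for 156 of all 563 upregulated DEGs. Stbd1 was no longer called without CR 1 or control 3 (log2 fold change 0.57 to 0.71, adjusted p = 0.0366 to 0.0664) and Ugp2 without CR 2, CR 3, control 2 or control 3 (log2 fold change -0.50 to -0.61, adjusted p = 0.0592 to 0.0796). Stbd1, Ugp2 and Pygl were not called with the adipocyte score as a covariate, nor Stbd1 in 1 fit over all SkM groups.

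Glycolysis and lactate genes moved in both directions, 3 up and 3 down of 33, next to 4.27% and 5.32% of all genes. Slc2a3, a glucose transporter of high affinity, rose from 5.61, 5.12, 5.47 and 5.57 to 13.1, 11.8 and 12.7 CPM with little spread in either group (1.21 ± 0.11, adjusted p = 0.000191). Fbp2, the muscle fructose bisphosphatase of the reverse pathway, rose too (log2 fold change 1.01 ± 0.12, adjusted p = 0.000732). Ldhd, the dehydrogenase of D-lactate, fell (-0.60 ± 0.12, adjusted p = 0.0107). In the pentose phosphate pathway, 2 of 10 genes rose, H6pd (0.71 ± 0.11, adjusted p = 0.00262) and Tkt (1.48 ± 0.38, adjusted p = 0.0342), and Tkt was at 8.05, 6.42, 8.10 and 7.98 against 20.97, 8.06 and 34.6 CPM, again lowest in CR 2. Ldhd was no longer called without control 2 or control 4 (log2 fold change -0.55 to -0.58, adjusted p = 0.0263 to 0.0408) and Tkt without CR 1, CR 3, control 1, control 2, control 3 or control 4 (log2 fold change 0.93 to 1.51, adjusted p = 0.0747 to 0.163). Ldhd and Tkt were not called with the adipocyte score as a covariate, nor Tkt in 1 fit over all SkM groups, nor Tkt with the slow fibre score, nor Tkt without a filter on low counts. Ldhd and Tkt also lost the call with the replicate number as a block.

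Of the fatty acid synthesis genes, 8 of 21 tested rose and 1 fell (Fads6, -0.97 ± 0.24). Fasn, the fatty acid synthase, stood at 8.33, 7.96, 8.37 and 9.81 CPM in the controls and 106, 24.9 and 159.5 CPM in the CR mice (3.50 ± 0.55, adjusted p = 0.00651). Scd1, the desaturase that makes oleate, was at 12.1, 3.77, 7.96 and 9.77 against 188, 35.5 and 371 CPM (4.56 ± 0.76, adjusted p = 0.00874). Thrsp, a lipogenic nuclear protein, was at 9.20, 5.86, 5.74 and 5.95 against 31.5, 12.6 and 31.4 CPM (1.92 ± 0.31, adjusted p = 0.00425). In all 3 genes CR 2 was the lowest CR library, as for Adipoq, but it still lay above every control. In trained mice, before TMM scaling, Adipoq stood at 12.2, 0.216, 0.260 and 0.129 CPM in EX 1 to 4. It stood at 15.4, 0.947 and 3.69 CPM in CREX 1 to 3. Fasn stood at 45.0, 8.29, 7.80 and 8.95 CPM in EX and 201, 25.2 and 61.4 CPM in CREX. Scd1 stood at 62.5, 4.97, 5.37 and 6.58 CPM in EX and 384, 29.0 and 84.9 CPM in CREX. The part of fat tissue in these values was not tested. Fads6 was no longer called without control 2, control 3 or control 4 (log2 fold change -0.90 to -1.03, adjusted p = 0.0504 to 0.0620), Fasn without CR 1 (log2 fold change 3.41, adjusted p = 0.0522) and Scd1 without CR 1 (log2 fold change 4.59, adjusted p = 0.0587). Fads6 was not called with the adipocyte score as a covariate, nor Fasn with the replicate number as a block.

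Acly, the ATP citrate lyase, rose as well (1.16 ± 0.21, adjusted p = 0.00540). Pnpla3, a lipase and acyltransferase of lipid droplets that is induced by feeding, stood at 1.84, 2.51, 2.35 and 2.58 CPM against 12.9, 11.9 and 13.9 CPM with almost no spread among the CR libraries (2.47 ± 0.14, adjusted p = 1.19e-05). With the adipocyte score as a covariate, the log2 fold changes were 1.78 for Fasn, 2.19 for Scd1, 0.97 for Thrsp and 2.41 for Pnpla3, all still called. For Acly it was 0.54 and no longer called. Acly was not called with the adipocyte score as a covariate.

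In sterol synthesis, 2 of 21 genes rose and 0 fell, with a median log2 fold change of 0.18. Those called were the thiolase Acat2 (0.75 ± 0.17, adjusted p = 0.0187) and Hsd17b7 (0.66 ± 0.18, adjusted p = 0.0393). In the list of sterol regulation, uptake and efflux, 3 rose and 1 fell of 25. Abca1, the cholesterol exporter, rose from 12.8, 13.2, 14.3 and 16.3 to 22.7, 39.3 and 28.5 CPM (1.09 ± 0.17, adjusted p = 0.00258). Apoe, a lipoprotein made by many cells including hepatocytes, rose from 45.4, 40.2, 39.3 and 36.1 to 79.9, 109 and 114 CPM (1.33 ± 0.14, adjusted p = 0.000391). Apoc1, which is mostly made in the liver, rose too (0.138, 0.279, 0.181 and 0.0416 against 2.59, 9.84 and 11.5 CPM), and for Apoc1 and Apoe CR 1 was the lowest CR library, as for Alb. Vldlr, a lipoprotein receptor, fell (-0.70 ± 0.15, adjusted p = 0.0147). Acat2 was no longer called without CR 3 or control 3 (log2 fold change 0.61 to 0.66, adjusted p = 0.0578 to 0.0774), Hsd17b7 without CR 2, CR 3, control 1, control 3 or control 4 (log2 fold change 0.50 to 0.70, adjusted p = 0.0675 to 0.155) and Vldlr without CR 2 or control 2 (log2 fold change -0.64 to -0.68, adjusted p = 0.0529 to 0.0530). Acat2 and Vldlr were not called with the adipocyte score as a covariate, nor Hsd17b7 in 1 fit over all SkM groups, nor Hsd17b7 with the slow fibre score.

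Fatty acid uptake and beta-oxidation had the most downregulated genes among the lists of fuel use, 9 of 45 against 1 upregulated, next to 5.32% of all genes. In total, 38 members were lower in CR and the median log2 fold change was -0.35. Acsl1, which activates long-chain fatty acids, stood at 361, 399, 385 and 401 CPM in the controls and 157, 193 and 217 CPM in the CR mice (-1.03 ± 0.13, adjusted p = 0.00106). Acads, the short-chain acyl-CoA dehydrogenase, fell from 63.7, 63.01, 57.6 and 64.4 to 34.7, 40.3 and 37.9 CPM (-0.72 ± 0.10, adjusted p = 0.00154). Cpt2, the inner-membrane carnitine transferase, fell from 86.1, 82.7, 80.2 and 80.8 to 52.3, 49.2 and 53.2 CPM (-0.67 ± 0.10, adjusted p = 0.00185). In each of these genes every CR library lay below every control.

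Both subunits of the trifunctional protein fell, Hadha (-0.64 ± 0.11, adjusted p = 0.00409) and Hadhb (-0.68 ± 0.12, adjusted p = 0.00493). Etfdh, which passes the electrons on, fell (-0.67 ± 0.11, adjusted p = 0.00343), and so did the peroxisomal Ehhadh (-0.95 ± 0.13, adjusted p = 0.00161). Acadvl (-0.50 ± 0.11, adjusted p = 0.0172), Acaa2 (-0.56 ± 0.13, adjusted p = 0.0172) and Hadh (-0.49 ± 0.12, adjusted p = 0.0216) passed the adjusted p but not the fold minimum, and Acadl passed neither (-0.35 ± 0.11, adjusted p = 0.0556). Acaa2 was called without CR 3 or control 4 and with the replicate number as a block.

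On the side of stored fat, Plin5, which ties lipid droplets to mitochondria, fell from 40.02, 38.7, 40.3 and 30.6 to 18.2, 15.4 and 16.9 CPM (-1.15 ± 0.13, adjusted p = 0.00056), and Plin4 rose from 231, 219.7, 255 and 287 to 555, 584 and 554 CPM (1.19 ± 0.12, adjusted p = 0.000391). Gpam, the first enzyme of glycerolipid synthesis, fell (-0.84 ± 0.17, adjusted p = 0.0103). Among the regulators, the co-activator Ppargc1b fell from 13.4, 20.1, 15.8 and 21.001 to 5.88, 8.38 and 7.64 CPM (-1.26 ± 0.18, adjusted p = 0.00177) and the orphan receptor Esrrg from 23.7, 33.7, 24.6 and 42.6 to 8.20, 11.6 and 14.97 CPM (-1.42 ± 0.24, adjusted p = 0.00415). Nrip1, a co-repressor of oxidative genes, rose from 13.1, 10.7, 10.5 and 11.1 to 30.9, 43.03 and 36.2 CPM (1.70 ± 0.13, adjusted p = 7.19e-05). The better known co-activator Ppargc1a was not called (19.1, 26.99, 21.8 and 35.4 against 24.9, 37.3 and 27.9 CPM, adjusted p = 0.518). Gpam and Esrrg were not called with the adipocyte score as a covariate.

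The ketone-using enzymes Bdh1 and Oxct1 fell, Bdh1 (107, 96.1, 69.9 and 85.7 to 27.2, 27.8 and 40.8 CPM, -1.49 ± 0.19, adjusted p = 0.00101) and Oxct1 (335, 393, 295 and 394 to 105, 181 and 193 CPM, -1.15 ± 0.20, adjusted p = 0.00512). Pdk4, the fasting brake on pyruvate oxidation, was not called (0.56 ± 0.19, adjusted p = 0.0745). With the replicate number as a block Pdk4 was called. Oxct1 was not called with the adipocyte score as a covariate, nor Bdh1 in 1 fit over all SkM groups.

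Transcripts of the mitochondrial genome fell together. All 13 protein-coding genes were lower in CR and 12 were downregulated, with a median log2 fold change of -0.91 and a range of -1.19 to -0.62. Their share of all counts was 36.8, 37.2, 35.95 and 33.3% in the controls and 21.2, 23.98 and 23.6% in the CR libraries. ND2 and ND1, subunits of complex I, stood at 20435, 25179.5, 23636 and 20197 CPM and 39506, 38193, 37057 and 30021 CPM in the controls. In the CR libraries ND2 was at 8508, 10874 and 10028 CPM (-1.19 ± 0.14, adjusted p = 0.00087) and ND1 at 19269.9, 19647 and 18544 CPM (-0.91 ± 0.14, adjusted p = 0.00250). Because these transcripts take up so much of a library, the comparison was repeated without their counts, and 1246 DEGs were found.

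The nuclear genes of the respiratory chain were mostly lower but rarely called. None of 36 complex I subunits was called, with 32 lower in CR and a median log2 fold change of -0.16. Of 40 subunits of complexes III to V, 1 fell, Cox7a1, the heart and muscle form of a complex IV subunit (-0.71 ± 0.20, adjusted p = 0.0395). Its level was 205, 171, 147 and 115 CPM in the controls and 112, 78.4 and 99.4 CPM in the CR mice. In pyruvate entry and the TCA cycle, 29 of 34 genes were lower and 1 was called, Pdp2, a phosphatase that activates pyruvate dehydrogenase (-0.74 ± 0.16, adjusted p = 0.0143). Cox7a1 was no longer called without CR 2, CR 3, control 1, control 2 or control 3 (log2 fold change -0.57 to -0.75, adjusted p = 0.0737 to 0.129) and Pdp2 without CR 2 (log2 fold change -0.66, adjusted p = 0.0577). Cox7a1 and Pdp2 were not called with the adipocyte score as a covariate, nor Cox7a1 with the slow fibre score.

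Of the list of sirtuins, NAD and creatine, 4 of 23 genes fell and 0 rose. Nmrk2, the muscle kinase that makes an NAD precursor, fell from 54.2, 47.98, 42.2 and 41.004 to 9.26, 19.2 and 17.7 CPM (-1.59 ± 0.22, adjusted p = 0.00156). Cd38, an enzyme that consumes NAD, fell (-1.27 ± 0.23, adjusted p = 0.00521), as did the mitochondrial deacetylase Sirt3 (-0.69 ± 0.13, adjusted p = 0.00585). Ckmt2, the mitochondrial creatine kinase, stood at 1729.8, 1699, 1439 and 1486 CPM against 657, 843 and 889 CPM (-0.99 ± 0.14, adjusted p = 0.00195). Cd38 and Sirt3 were not called with the adipocyte score as a covariate, nor Ckmt2 in 1 fit over all SkM groups.

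Genes of cytosolic ribosomal proteins were higher in CR, and few were called. All 81 had a positive log2 fold change with a median of 0.43, and 3 were upregulated, Rpl12 (1.10 ± 0.25, adjusted p = 0.0172), Rpl3 (0.65 ± 0.16, adjusted p = 0.0251) and Rpl4 (0.60 ± 0.17, adjusted p = 0.0403). Rpl12 stood at 178, 121, 124 and 95.4 CPM against 391, 229.8 and 208 CPM. CR 1 was the highest and control 4 the lowest library for it. Processed copies of ribosomal protein genes are common, and reads may be shared with them. Rpl12 was no longer called without control 2 or control 3 (log2 fold change 1.06 to 1.08, adjusted p = 0.0577 to 0.0592), Rpl3 without CR 1, CR 3, control 2, control 3 or control 4 (log2 fold change 0.52 to 0.65, adjusted p = 0.0492 to 0.0792) and Rpl4 without CR 1, CR 2, control 2, control 3 or control 4 (log2 fold change 0.38 to 0.69, adjusted p = 0.0533 to 0.110). Rpl12, Rpl3 and Rpl4 were not called with the adipocyte score as a covariate, nor Rpl4 in 1 fit over all SkM groups, nor Rpl12 without a filter on low counts. Rpl4 also lost its call with the replicate number as a block.

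**Figure D4:**
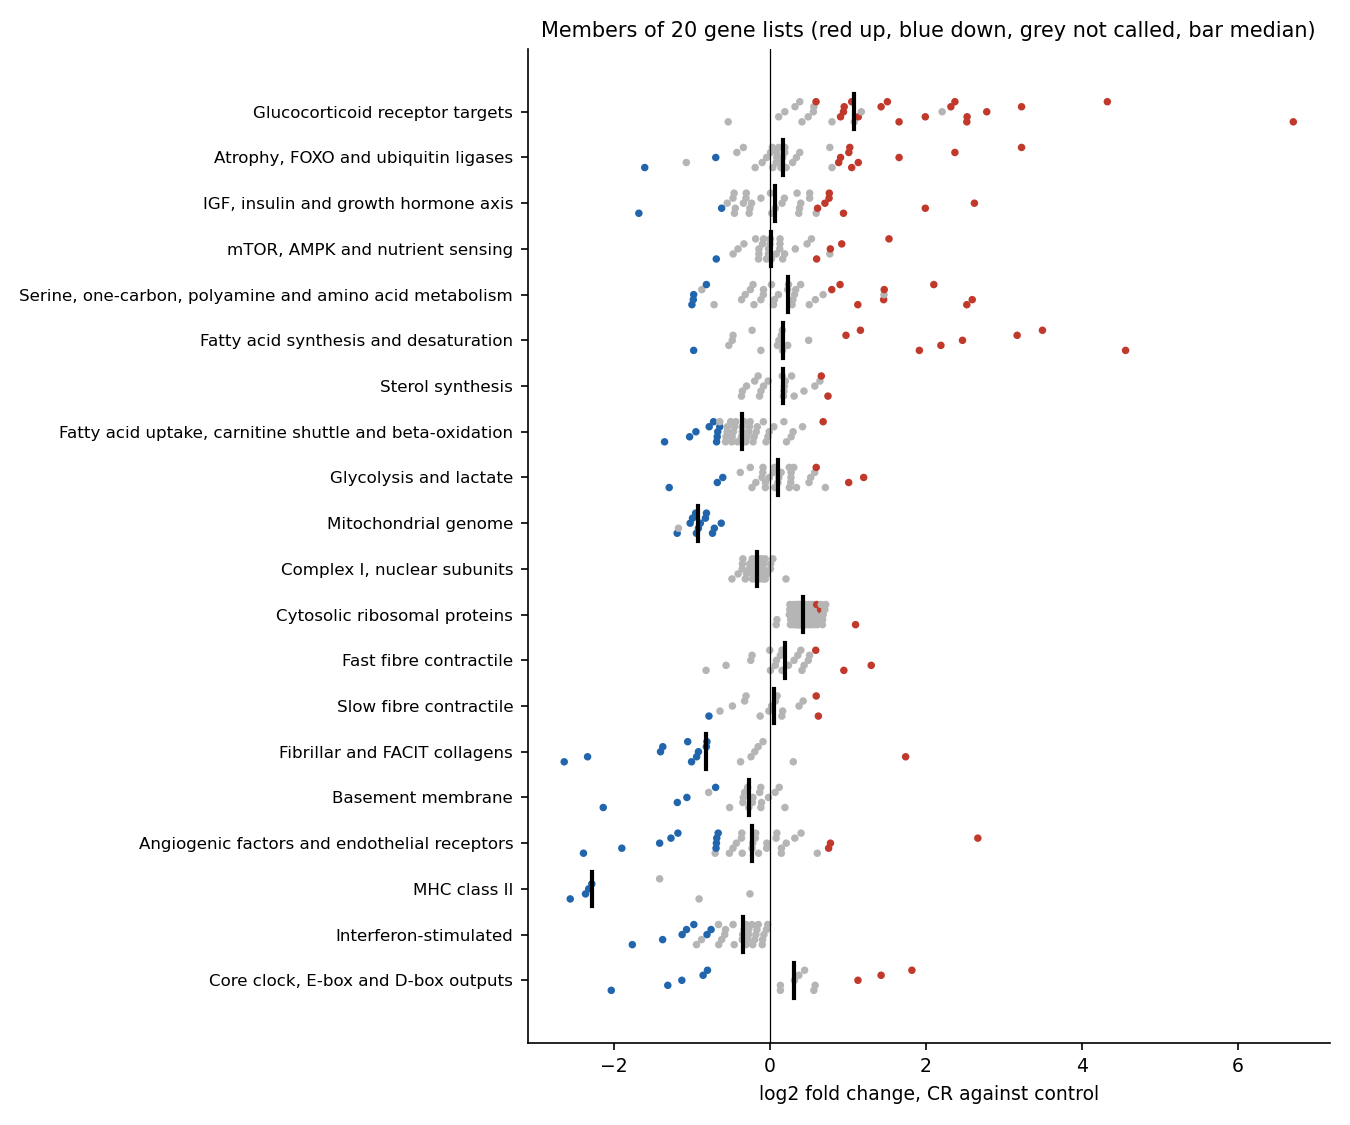
Log2 fold change of CR against control for every tested member of 20 gene lists, 1 point per gene, with upregulated DEGs in red, downregulated DEGs in blue, other genes in grey and a black bar at the median of the list. Glucocorticoid targets lie mostly above 0 (median 1.08), and fibrillar collagens (-0.81), MHC class II genes (-2.28) and the mitochondrial genome (-0.91) mostly or wholly below it.

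Of 22 fast fibre genes, 3 rose and 0 fell. Actn3, the fast fibre actinin of the Z-disc, stood at 4548, 4635, 5180.1 and 4171 CPM in the controls and 14223, 10726 and 9159 CPM in the CR mice (1.30 ± 0.17, adjusted p = 0.00115). Atp2a1, the fast calcium pump of the reticulum, rose from 19195, 21650.2, 23498 and 21910.4 to 35778, 31552 and 29691 CPM (0.59 ± 0.13, adjusted p = 0.0162). Mylpf, the fast regulatory light chain, rose from 5731, 4476, 4369.6 and 3196 to 11991, 6878 and 6751 CPM (0.95 ± 0.24, adjusted p = 0.0284). These 3 carried some of the highest CPM differences of the comparison, and CR 1 was their highest library. Atp2a1 was no longer called without CR 1, control 1 or control 2 (log2 fold change 0.50 to 0.59, adjusted p = 0.0206 to 0.0602) and Mylpf without CR 1, control 2, control 3 or control 4 (log2 fold change 0.61 to 0.95, adjusted p = 0.0525 to 0.0828). Atp2a1 and Mylpf were not called with the adipocyte score as a covariate, nor Atp2a1 in 1 fit over all SkM groups, nor Atp2a1 with the slow fibre score.

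The myosin heavy chains were not called in the main fit. Myh2 was called under DESeq2 and without CR 3, and Myh4 with the replicate number as a block. Myh4 of type IIb fibres was at 18193, 27281, 29796 and 29773 CPM against 35058, 38627 and 37022 CPM (adjusted p = 0.0878), Myh2 of type IIa fibres had a log2 fold change of -0.82 ± 0.25 (adjusted p = 0.0556), and the slow Myh7 overlapped widely (180.2, 616, 484 and 796 against 406, 747 and 578 CPM). In the slow fibre list, Mb, the oxygen store myoglobin, fell from 6225, 5069, 4264 and 4309 to 2819.9, 2634 and 3208 CPM (-0.78 ± 0.16, adjusted p = 0.0119), whereas Myl2 (0.62 ± 0.16, adjusted p = 0.0284) and Casq2 (0.60 ± 0.10, adjusted p = 0.00362) rose. With a slow fibre score as a covariate, 1263 DEGs were found, 1070 of them among those found without it. Mb was no longer called without CR 2 (log2 fold change -0.72, adjusted p = 0.0527), Myl2 without CR 1, CR 3, control 1, control 3 or control 4 (log2 fold change 0.49 to 0.62, adjusted p = 0.0490 to 0.0903) and Casq2 without CR 2 or control 2 (log2 fold change 0.52 to 0.58, adjusted p = 0.0183 to 0.0192). Myl2 was not called with the adipocyte score as a covariate, nor Mb, Myl2 or Casq2 in 1 fit over all SkM groups. Myl2 also lost its call with the replicate number as a block.

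Sln, a small inhibitor of the calcium pump, rose from 2.48, 1.35, 1.27 and 1.497 to 8.91, 5.45 and 5.65 CPM (2.02 ± 0.27, adjusted p = 0.00130). Cacnb1, a subunit of the calcium channel of the T-tubule, rose (0.74 ± 0.11, adjusted p = 0.00213), while Rcan1, a target and inhibitor of calcineurin, fell (-0.79 ± 0.13, adjusted p = 0.00389). At the neuromuscular junction, 4 of 24 genes rose and 3 fell. Chrnb1, a subunit of the acetylcholine receptor, rose from 18.4, 19.8, 21.9 and 16.4 to 59.1, 44.2 and 40.6 CPM (1.33 ± 0.15, adjusted p = 0.000578), and Musk, the kinase that clusters the receptor, from 16.7, 17.6, 16.7 and 16.6 to 32.9, 29.5 and 30.5 CPM (0.88 ± 0.09, adjusted p = 0.000409). Chrna1 rose too (0.84 ± 0.17), and Hdac9, a repressor that is itself lowered by denervation, fell (-1.38 ± 0.27, adjusted p = 0.00860). Ky, a peptidase of the Z-disc, fell from 151, 217, 194 and 223 to 47.7, 111 and 86.5 CPM (-1.26 ± 0.25, adjusted p = 0.00840). Rcan1, Chrna1, Hdac9 and Ky were not called with the adipocyte score as a covariate.

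Genes of the extracellular matrix fell across several lists. Of 17 fibrillar and related collagens tested (of 21 listed), 10 fell and 1 rose, with a median log2 fold change of -0.81, next to 5.32% of all genes downregulated. Col3a1, the type III collagen of connective tissue (chr1:45311538-45349706, GRCm38), stood at 69.4, 53.4, 63.01 and 64.96 CPM in the controls and 8.82, 10.4 and 10.998 CPM in the CR mice (-2.63 ± 0.13, adjusted p = 9.52e-06). Col1a1, the main chain of type I collagen, fell from 33.5, 24.9, 39.1 and 35.8 to 6.71, 5.06 and 7.98 CPM (-2.33 ± 0.20, adjusted p = 0.000131). In a bulk muscle library, fewer fibroblasts and less RNA per fibroblast cannot be told apart.

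All 3 chains of type VI collagen, which surrounds muscle fibres, fell together. Col6a2 was at 34.5, 27.7, 34.8 and 34.5 CPM against 10.6, 13.6 and 13.1 CPM (-1.40 ± 0.13, adjusted p = 0.000223), and Col6a1 (-1.001 ± 0.11) and Col6a3 (-1.05 ± 0.12) fell as well. Col5a3, a minor fibril chain, fell (-0.80 ± 0.19, adjusted p = 0.0177). The exception was Col11a2, which rose from 1.10, 2.23, 2.40 and 2.08 to 6.45, 7.67 and 5.50 CPM (1.74 ± 0.23, adjusted p = 0.00130). Col5a3 was no longer called without control 3 (log2 fold change -0.76, adjusted p = 0.0587). Col5a3 was not called with the adipocyte score as a covariate.

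In the basement membrane list, 4 of 21 genes fell and 0 rose. Col15a1 fell the most, from 25.3, 23.6, 24.4 and 26.7 to 3.51, 6.05 and 7.45 CPM (-2.13 ± 0.20, adjusted p = 0.000247). The type IV chains Col4a1 (-1.18 ± 0.14, adjusted p = 0.000852) and Col4a2 (-1.06 ± 0.15, adjusted p = 0.00170), which form the network under every vessel and fibre, fell to a similar degree, and Hspg2 (perlecan) fell less (-0.69 ± 0.17, adjusted p = 0.0241). Among proteoglycans and matricellular proteins, 7 of 47 fell and 1 rose. Fbn1, the fibrillin of elastic fibres, fell from 24.3, 17.2, 21.5 and 28.4 to 5.002, 5.33 and 8.59 CPM (-1.85 ± 0.22, adjusted p = 0.000785), and Sparc, a collagen-binding glycoprotein, from 123, 105, 136 and 124 to 68.7, 58.2 and 70.4 CPM (-0.89 ± 0.13, adjusted p = 0.00192). Fn1 (-1.03 ± 0.23) and the tendon-rich Thbs4 (-0.81 ± 0.15) fell as well. Hspg2 was no longer called without CR 1, control 2, control 3 or control 4 (log2 fold change -0.54 to -0.73, adjusted p = 0.0311 to 0.0735) and Fn1 without CR 1 or CR 2 (log2 fold change -0.89 to -0.95, adjusted p = 0.0551 to 0.0634). Hspg2 was not called with the adipocyte score as a covariate, nor Fn1 in 1 fit over all SkM groups. Fn1 also lost its call with the replicate number as a block.

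Enzymes of the matrix followed. Loxl1 (-0.998 ± 0.15), Loxl2 (-0.85 ± 0.18) and Pcolce (-0.62 ± 0.13), which crosslink or process collagen, fell, and in that list 4 of 27 fell and 1 rose. Mmp2, a gelatinase, fell from 25.3, 21.8, 23.3 and 23.4 to 14.3, 11.8 and 13.3 CPM (-0.83 ± 0.11, adjusted p = 0.00135). Timp3, an inhibitor of such proteases, rose from 79.4, 84.5, 84.7 and 98.4 to 130.2, 172 and 166 CPM (0.85 ± 0.13, adjusted p = 0.00214). Pcolce was no longer called without CR 2 or control 1 (log2 fold change -0.52 to -0.56, adjusted p = 0.0163 to 0.0416). Pcolce was not called with the slow fibre score.

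The marker genes of the cells that make matrix were not lower throughout. Of 10 markers of fibro-adipogenic progenitors, 4 fell, among them Col3a1 and Fbn1, and the summed list overlapped between groups (768 to 995 CPM against 628 to 839 CPM). In this list 8 markers were lower and 2 higher in CR, with a median log2 fold change of -0.44. Pdgfra, the receptor that defines these cells, was at 9.52, 10.1, 10.04 and 8.90 CPM against 9.30, 9.48 and 11.9 CPM (0.09 ± 0.12, adjusted p = 0.660), and the abundant Dcn at 265, 208, 227 and 212 against 243, 188 and 239 CPM (-0.03 ± 0.14, adjusted p = 0.928). The groups overlapped for both.

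Endothelial and immune genes fell in part. Of 34 angiogenic factors and endothelial receptors, 9 fell and 3 rose. Kdr, the main VEGF receptor, fell from 39.9, 55.5, 59.1 and 46.7 to 12.99, 25.01 and 24.6 CPM (-1.27 ± 0.22, adjusted p = 0.00460), and Aplnr, the apelin receptor, from 3.91, 6.89, 7.74 and 4.82 to 1.45, 1.66 and 1.57 CPM (-1.90 ± 0.25, adjusted p = 0.00130). Angpt1, an angiopoietin that steadies vessels, fell from 5.84, 7.86, 5.65 and 9.07 to 2.50, 3.91 and 2.98 CPM (-1.18 ± 0.21, adjusted p = 0.00574). Hif3a, a brake on the hypoxia response and known to respond to glucocorticoids, rose from 0.966, 0.791, 0.588 and 0.915 to 6.10, 4.50 and 5.002 CPM (2.67 ± 0.21, adjusted p = 9e-05). The summed endothelial markers did not overlap, at 342 to 418 CPM in the controls and 237 to 293 CPM in the CR mice, with 3 of 10 called. Pecam1 was not called (-0.30 ± 0.11, adjusted p = 0.0946). Kdr and Angpt1 were not called with the adipocyte score as a covariate.

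MHC class II, by which antigen-presenting cells display peptides, had 4 of 7 tested genes down and a median log2 fold change of -2.28. H2-Aa stood at 13.2, 11.2, 9.41 and 19.8 CPM in the controls and 1.97, 2.09 and 3.93 CPM in the CR mice (-2.32 ± 0.31, adjusted p = 0.00130), and Cd74, its chaperone, at 31.05, 24.2, 22.6 and 42.6 against 4.04, 3.83 and 10.6 CPM (-2.28 ± 0.38, adjusted p = 0.00503). H2-Eb1 (-2.56 ± 0.38) and H2-Ab1 (-2.36 ± 0.38) fell alike, and reads of H2 genes may be shared between close copies. Of 10 macrophage markers tested, 0 were called, 8 had a negative and 2 a positive log2 fold change, and the summed levels overlapped, with 34.7 to 62.6 CPM against 24.98 to 41.4 CPM. The dendritic cell marker Cd209a fell (0.782, 0.465, 0.498 and 0.291 to 0.132, 0.119 and 0.0764 CPM, -2.17 ± 0.50, adjusted p = 0.0180), near the limit of detection. Cd209a was no longer called without CR 2 or CR 3 (log2 fold change -1.97 to -2.24, adjusted p = 0.0552 to 0.0633). Cd209a was not called with the adipocyte score as a covariate, nor Cd74 with the replicate number as a block.

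All 35 interferon-stimulated genes tested were lower in CR and 7 were downregulated, with a median log2 fold change of -0.35. Cxcl9, a chemokine induced by interferon gamma, fell from 1.93, 2.05, 1.72 and 1.25 to 0.219, 0.474 and 0.802 CPM (-1.76 ± 0.36, adjusted p = 0.0107), and Iigp1 from 5.61, 9.73, 6.74 and 6.03 to 2.06, 3.87 and 3.67 CPM (-1.12 ± 0.24, adjusted p = 0.0139). Of the class I list, Tap1, a peptide transporter (-0.78 ± 0.20, adjusted p = 0.0266), and Nlrc5, the activator of class I genes (-1.02 ± 0.30, adjusted p = 0.0481), fell. H2-Q10, a class I gene made in liver, rose, with CR 1 the lowest CR library as for Alb (0.184, 0.140, 0.0905 and 0.0416 against 1.32, 2.85 and 5.69 CPM). Tap1 was no longer called without CR 2, control 2, control 3 or control 4 (log2 fold change -0.62 to -0.81, adjusted p = 0.0519 to 0.0959) and Nlrc5 without CR 1, CR 2, control 1, control 2, control 3 or control 4 (log2 fold change -0.84 to -1.09, adjusted p = 0.0727 to 0.151). Cxcl9, Iigp1, Tap1 and Nlrc5 were not called with the adipocyte score as a covariate, nor Iigp1, Tap1 or Nlrc5 in 1 fit over all SkM groups, nor Nlrc5 with the slow fibre score. Nlrc5 also lost its call with the replicate number as a block.

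Clock genes moved in both directions. Of 15 E-box and D-box outputs, 3 rose and 5 fell. Nr1d1 (REV-ERB alpha), a repressor of the clock, fell from 148, 245, 261 and 192 to 66.03, 46.2 and 42.3 CPM (-2.03 ± 0.23, adjusted p = 0.00056). Bhlhe41, a repressor with an E-box in the promoter shown, fell from 33.1, 51.1, 48.04 and 45.8 to 11.2, 23.7 and 18.98 CPM (-1.31 ± 0.23, adjusted p = 0.00479), and Ciart, with 3 E-boxes, from 11.1, 6.33, 8.59 and 8.19 to 2.33, 4.54 and 4.81 CPM (-1.13 ± 0.25, adjusted p = 0.0156). Dbp, a D-box activator, fell (-0.85 ± 0.19, adjusted p = 0.0151). Dbp was no longer called without control 3 (log2 fold change -0.82, adjusted p = 0.0501). Bhlhe41, Ciart and Dbp were not called with the adipocyte score as a covariate, nor Ciart in 1 fit over all SkM groups. Ciart also lost its call with the replicate number as a block.

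Per2, which peaks later than Nr1d1 in the daily cycle, rose from 12.1, 7.12, 8.59 and 10.4 to 32.5, 35.9 and 32.95 CPM (1.82 ± 0.16, adjusted p = 0.000166). Nfil3, a repressor that opposes Dbp, rose from 11.96, 11.1, 8.64 and 14.3 to 65.9, 28.3 and 36.4 CPM (1.93 ± 0.27, adjusted p = 0.00208). Per1 was not called and controls 1 and 4 were again its high controls (63.6, 27.8, 38.8 and 73.5 against 62.3, 75.8 and 88.1 CPM). Tissue of each mouse was taken once, so that a changed level and a shifted phase cannot be told apart.

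Immediate early genes, which respond within minutes to activity and handling, had 3 upregulated and 5 downregulated members of 29. Myc rose from 2.44, 2.56, 2.22 and 2.08 to 9.04, 10.8 and 5.23 CPM (1.85 ± 0.23, adjusted p = 0.00101), and Junb fell from 10.8, 15.5, 21.2 and 12.1 to 9.08, 5.10 and 6.11 CPM (-1.13 ± 0.26, adjusted p = 0.0172). Of 29 heat shock chaperones, 27 were lower and 3 fell, Hsph1 (-0.96 ± 0.17, adjusted p = 0.00532), Hspb8 (-0.71 ± 0.13, adjusted p = 0.00506) and Hspa1l (-0.70 ± 0.13, adjusted p = 0.00606). Of 29 genes of endoplasmic reticulum stress, 1 rose and 2 fell, shares close to the 4.27% and 5.32% of all genes. In the antioxidant list, Cat, the catalase, fell from 133, 148, 149 and 139 to 89.5, 87.4 and 89.4 CPM (-0.68 ± 0.10, adjusted p = 0.00220), and Gstm2, a glutathione transferase, rose from 44.7, 33.7, 39.99 and 29.3 to 108, 75.4 and 65.6 CPM (1.18 ± 0.19, adjusted p = 0.00359). Sod3, the extracellular superoxide dismutase, fell (-0.95 ± 0.16, adjusted p = 0.00405). Junb was no longer called without CR 2 or CR 3 (log2 fold change -0.97 to -1.07, adjusted p = 0.0554 to 0.0612) and Hspa1l without CR 2 (log2 fold change -0.56, adjusted p = 0.0146). Junb, Hsph1, Hspb8 and Gstm2 were not called with the adipocyte score as a covariate, nor Junb in 1 fit over all SkM groups, nor Junb without a filter on low counts. Junb also lost its call with the replicate number as a block.

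Myogenic and growth regulators changed little as lists, 2 up and 2 down of 36, close to the 4.27% and 5.32% of all genes. Six4 fell from 16.9, 19.3, 18.9 and 22.6 to 8.73, 9.09 and 11.2 CPM (-1.003 ± 0.13, adjusted p = 0.00130), and Heyl, a Notch target, fell (-1.07 ± 0.18, adjusted p = 0.00450). Myod1 (0.60 ± 0.13, adjusted p = 0.0150) and Notch2 (0.59 ± 0.13, adjusted p = 0.0121) rose by little more than the fold minimum. Pax7, which defines the satellite cell, was not called (1.66, 2.42, 2.26 and 1.75 against 1.14, 1.78 and 1.30 CPM, adjusted p = 0.172). Of the 8 satellite cell markers 0 were called, with 5 higher and 3 lower in CR (median log2 fold change 0.12). Their summed level did not overlap, at 35.5 to 37.8 CPM in the controls and 38.3 to 52.2 CPM in the CR mice. Myod1 was no longer called without CR 1, CR 3, control 1 or control 3 (log2 fold change 0.51 to 0.58, adjusted p = 0.0195 to 0.0499) and Notch2 without CR 3, control 2 or control 3 (log2 fold change 0.53 to 0.57, adjusted p = 0.0438 to 0.0446). Heyl, Myod1 and Notch2 were not called with the adipocyte score as a covariate, nor Myod1 or Notch2 in 1 fit over all SkM groups, nor Myod1 with the slow fibre score, nor Notch2 without a filter on low counts.

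Of 31 genes of the BMP and activin family, the activin receptor Acvr1b rose (1.40 ± 0.22, adjusted p = 0.00302). Acvr2b (-0.78 ± 0.14, adjusted p = 0.00592) and the inhibitor Smad6 (-0.96 ± 0.16, adjusted p = 0.00349) fell. Myostatin, Mstn, was not called (0.12 ± 0.13, adjusted p = 0.592). Acvr2b and Smad6 were not called with the adipocyte score as a covariate, nor Acvr2b in 1 fit over all SkM groups.

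The cyclins Ccnd1 and Ccne2 fell, the first from 2.62, 3.35, 3.62 and 3.58 to 0.877, 1.38 and 1.60 CPM (-1.34 ± 0.23, adjusted p = 0.00427) and the other from 4.19, 4.19, 2.62 and 3.78 to 1.27, 1.70 and 1.53 CPM (-1.29 ± 0.21, adjusted p = 0.00380), in a proliferation list with 4 down and 2 up of 23. Of 23 myokines tested, 8 fell and 0 rose. Cx3cl1, fractalkine, fell from 2.76, 5.45, 3.89 and 4.28 to 0.483, 0.948 and 0.878 CPM (-2.39 ± 0.29, adjusted p = 0.00087). Fndc5, the precursor of irisin, fell from 168, 144, 118 and 141 to 80.8, 76.1 and 87.9 CPM (-0.80 ± 0.13, adjusted p = 0.00406), and Metrnl (-1.09 ± 0.21, adjusted p = 0.00800) and Bdnf (-1.33 ± 0.28, adjusted p = 0.0116) fell too. Ccnd1, Ccne2 and Bdnf were not called with the adipocyte score as a covariate, nor Fndc5 in 1 fit over all SkM groups.

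Several genes outside the lists were among the strongest of the comparison. Glb1l2, a relative of beta-galactosidase, rose from 2.07, 1.40, 1.99 and 1.79 to 13.4, 15.4 and 11.5 CPM (2.89 ± 0.16, adjusted p = 1.19e-05). Prima1, which anchors acetylcholinesterase to membranes, rose from 4.05, 4.93, 5.11 and 6.53 to 41.4, 27.7 and 28.03 CPM (2.65 ± 0.19, adjusted p = 6.92e-05). Adora1, the A1 adenosine receptor, rose from 1.24, 0.745, 0.995 and 0.541 to 9.04, 7.31 and 6.80 CPM (3.14 ± 0.24, adjusted p = 7.19e-05). None of the 3 had overlapping groups.

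Dusp10, a phosphatase of stress kinases, fell from 25.2, 45.1, 45.8 and 36.6 to 5.26, 5.26 and 7.68 CPM (-2.65 ± 0.23, adjusted p = 0.00016). Tnfrsf19, a receptor of the tumour necrosis factor family, fell from 16.1, 17.9, 16.01 and 19.05 to 3.55, 4.86 and 4.12 CPM (-2.04 ± 0.13, adjusted p = 3.66e-05), and Slc41a3, a magnesium transporter, from 69.7, 69.7, 68.2 and 72.2 to 27.7, 30.8 and 26.96 CPM (-1.29 ± 0.10, adjusted p = 7.19e-05). Chrna2, a neuronal acetylcholine receptor subunit, was at 4.65, 3.86, 5.11 and 4.62 CPM against 0.746, 0.909 and 0.802 CPM (-2.46 ± 0.19, adjusted p = 7.19e-05). Mir1a-1hg, the host transcript of the muscle microRNA miR-1a, fell (-1.92 ± 0.16, adjusted p = 0.000116), which says nothing of the mature microRNA. Lgr6 (-2.92 ± 0.55) and the linker histone Hist1h1e (-2.56 ± 0.31) fell from low levels, as did the non-coding or uncharacterized Irx3os (-4.48 ± 0.53), 1700001O22Rik (-3.99 ± 0.43), 5430401H09Rik (-3.69 ± 0.53), Gm13490 (-2.97 ± 0.42) and Gm34455 (-2.70 ± 0.28). The counting strand is not given in the sources used here, so reads of an antisense transcript such as Irx3os cannot be told apart from those of its neighbour.

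A further list holds genes discussed for CR in SkM in the source publication, 2 up and 7 down of 20. The list was chosen on these samples and is no independent evidence of its direction. Fdft1 (0.31 ± 0.12, adjusted p = 0.106) of sterol synthesis was not called. Gpi1, a glycolytic enzyme also known as a secreted factor, was at 969, 1037, 971 and 862 CPM against 1788, 1202 and 1133 CPM (0.53 ± 0.17, adjusted p = 0.0678). Of the respiratory chain, Ndufs1 (-0.31 ± 0.11), Ndufb2 (-0.34 ± 0.20), Cox5a (-0.26 ± 0.14) and Atp5h (-0.20 ± 0.18) were not called.

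The same diet was compared in trained mice, CREX against EX, in 7 other libraries that share no sample with the comparison above. There, 485 genes were upregulated (3.70%) and 678 downregulated (5.17%). The library CREX 1 stood apart, with 36.3, 0.172 and 0.301 CPM of Alb in CREX 1 to 3, before TMM scaling, and without it 2570 DEGs were found. Without any other of the 7 mice the count was lower, down to 343 without CREX 2, and with the replicate number as a block it was 646, so that the shares of shared genes below rest on a count that moves by over 1.5 times in both directions. The CREX and EX libraries also differed in markers of slow fibres and tendon. Myh7 stood at 13.9, 398, 651 and 152 CPM in EX 1 to 4 and 115, 6.54 and 0.129 CPM in CREX 1 to 3, before TMM scaling, the soleus-type slow fibre markers had a median log2 fold change of -2.35 with 0 of 8 called down, and of the tenocyte markers 4 of 5 fell (median -2.26). Their part in the values of CREX against EX was not tested. Of the CR DEGs that could be tested there, 489 of 509 upregulated and 677 of 697 downregulated genes had the same direction. The share with the same direction over all tested genes is not given, so these counts have no baseline. DEGs in both were 241 upregulated genes, which is 47.3% of the tested CR list and 49.7% of the CREX list, and 345 downregulated genes, 49.5% and 50.9%. None was called in opposite directions.

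Fkbp5 (3.27 ± 0.23, adjusted p = 0.000514), Doc2b (4.56 ± 0.36, adjusted p = 0.000514), Glul (2.43 ± 0.24, adjusted p = 0.00187) and Foxo1 (2.51 ± 0.28, adjusted p = 0.00421) rose in trained mice as well. Col3a1 (-2.20 ± 0.27, adjusted p = 0.00592), Nr1d1 (-2.10 ± 0.19, adjusted p = 0.00112) and H2-Aa (-1.43 ± 0.23, adjusted p = 0.00877) fell. Of the glucocorticoid targets, 16 of 30 rose, of the collagens 7 of 17 fell, and of the mitochondrial genome 12 of 13 fell. Here Trim63 (1.32 ± 0.27, adjusted p = 0.0197) and Fbxo32 (0.95 ± 0.24, adjusted p = 0.0362) were called, and 12 of 40 subunits of complexes III to V fell. For none of these genes was the difference between sedentary and trained mice called, as the interaction test below gives. Alb (4.54 ± 2.10, adjusted p = 0.204), Fasn (2.31 ± 1.01, adjusted p = 0.180) and Per2 (0.49 ± 0.21, adjusted p = 0.147) were not called.

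**Figure D5:**
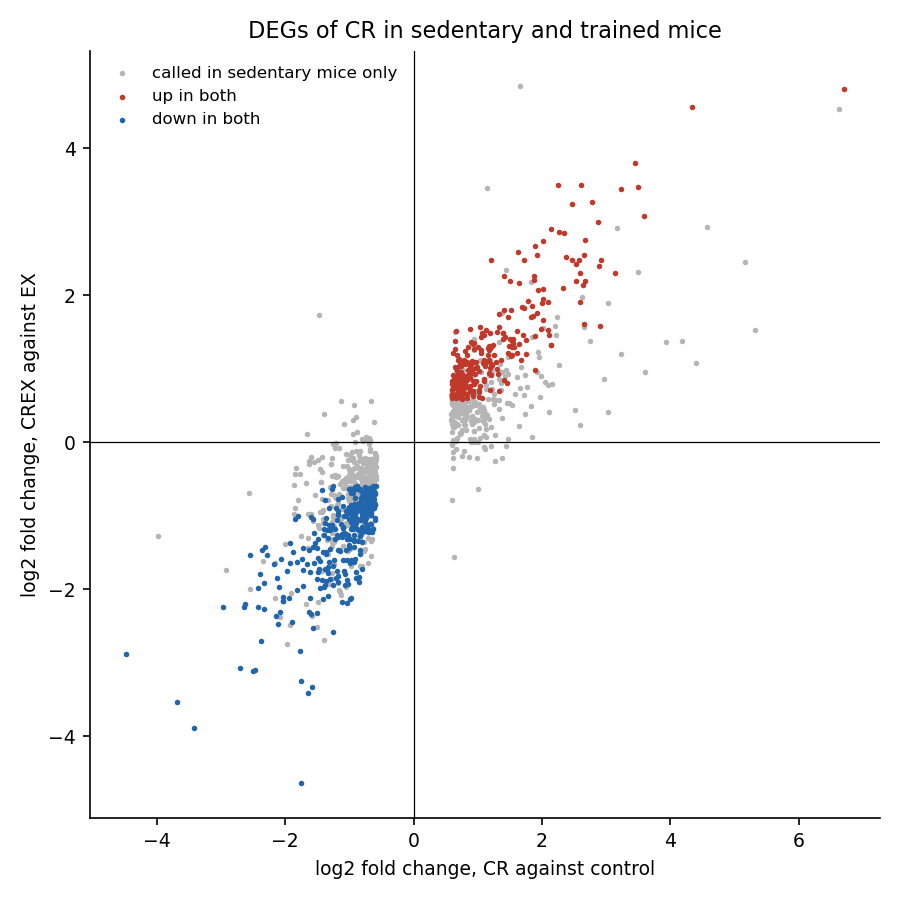
Log2 fold change of CR against control in sedentary mice (horizontal axis) and of CREX against EX in trained mice (vertical axis) for the 1206 CR DEGs tested in both, 1 point per gene, with genes called in both in colour. 1166 of the 1206 points lie in the lower left or upper right corner.

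The interaction of CR and EX was tested in 1 edgeR fit over the 14 SkM libraries, and 0 of 13610 genes passed an adjusted p of 0.05 (0%). The unadjusted p was under 0.05 for 669 genes, DESeq2 called 1, and 182 were called without CREX 1. The smallest p-values belonged to Per2 (interaction -1.31 on the log2 scale), Creb3l1 (1.36), Gnmt (-2.35), Setbp1 (1.34) and Tspan4 (-1.15), with an adjusted p of 0.922 for Per2.

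Finally, the effect of CR in SkM was compared to that in BAT of sedentary mice in 1 fit over both tissues. The labels do not say which SkM and BAT libraries come from 1 mouse. The fit took all libraries as independent, and its p-values rest on that. Of 14369 genes, 1089 differed at an adjusted p under 0.05 (7.58%), 524 with a higher and 565 with a lower log2 fold change in SkM. Among the SkM DEGs these were 175 of 563 upregulated and 188 of 701 downregulated genes. The SkM libraries that chose these DEGs also entered this fit, so shares above 7.58% were partly fixed in advance. Glb1l2 had a difference of 3.70 ± 0.27 (SkM minus BAT, log2 scale, adjusted p = 1.79e-06), Adora1 of 4.01 ± 0.30 (adjusted p = 1.79e-06) and Cntfr, a receptor of ciliary neurotrophic factor, of 3.03 ± 0.22 (adjusted p = 1.79e-06). Foxo1 (2.43 ± 0.25, adjusted p = 8.67e-05) had a mean of 71.3 CPM in control BAT and 67.9 CPM in CR BAT. For the liver-rich Apoe the difference was 2.22 ± 0.17 (adjusted p = 1.79e-06), and for Gmpr, which was not called in SkM, 1.86 ± 0.14 (adjusted p = 1.79e-06).

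Other genes did not pass that test of difference. Fkbp5 had a difference of -1.25 ± 0.41 (adjusted p = 0.0894), Nr1d1 of -0.14 ± 0.27 (adjusted p = 0.808) and H2-Aa of -0.82 ± 0.37 (adjusted p = 0.198). Collagens were mixed, since Col3a1 fell more in SkM than in BAT (-1.18 ± 0.23, adjusted p = 0.00558), as did Col1a1 (-1.05 ± 0.25, adjusted p = 0.0170), while Col6a1 (-0.18 ± 0.14, adjusted p = 0.487) and Col15a1 (-0.03 ± 0.24, adjusted p = 0.970) did not pass the test of difference.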

How the data were processed

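Paired-end RNA-seq reads of mouse gastrocnemius and BAT were trimmed, aligned to mm10 with STAR 2.7.10a and quantified with RSEM 1.2.28 by the authors, with the versions taken from the submitters' processing notes. The annotation is not given in the sources used here. The deposited table holds the authors' expected counts, not normalized, for 29 libraries and 24770 gene symbols. 27 symbols read as calendar dates and 2 occurred more than once. Counts of reads shared between near-identical genes rest on RSEM's split. Depth was 23050918 to 23425284 counts in the 7 libraries.

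Expected counts were rounded, filtered with filterByExpr and tested with edgeR 4.0.16 (R 4.3.3, TMM, robust quasi-likelihood fit, Benjamini-Hochberg adjustment) on the CR and control libraries alone. The interaction with training and the difference between tissues were tested as interaction terms, with all libraries taken as independent. DESeq2 1.42.0 and further settings served as alternatives, and the fit was tested on simulated data with 200 changed genes. Promoter sequences were those of RefSeq.

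The comparison and the gene lists were chosen with earlier results of these data known. Genes were named by rule: in each direction up to 10 DEGs without overlap of the groups by fold change, 6 by p and 6 by CPM difference, 5 per list with the smallest p, the defining and 3 most abundant genes per marker list, 5 each for the interaction and tissue terms, and genes that the study names for CR in muscle. Outside this rule, after their values were seen, Apoa2, Cebpd, Ciart, Col11a2, Dbp, Ddit4, Fads6, Fbxo32, Fos, Foxo4, Foxo6, Gpx3, Igf1, Mstn, Mt1, Mt2, Nr3c1, Oxct1, Per1, Ppargc1a, Sgk1, Tat, Trim63 and Zbtb16 were named as well. Some genes are not reported here.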

Additional observations from a re-analysis of the deposited data

Results flagged for a closer look

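In groups of 4 libraries, 255 quantities of the SkM controls were examined with Dixon's test at its 95% critical value for 4 values, which picks out about 1 in 20 groups by chance, and 27 had 1 library far from the other 3. Control 2 stood above the other controls for the liver genes Apoa2 (0.931 CPM), Ces1c (0.0931), Cyp2e1 (0.512), Cyp3a11 (0.233) and Ttr (0.326). The values of Cps1 (0.0465 CPM), Cyp2a5 (0.0465), Hpd (0.0465) and Uox (0.0465) in control 2 correspond to 1 count in a library, against 0 in the other controls. For Mat1a the high control was control 4 (0.0832 CPM). Control 2 also stood apart for the collagen genes Col6a1 (31.7 CPM) and Col6a2 (27.7 CPM), the peroxisomal enzyme gene Ehhadh (9.03 CPM), the pentose phosphate enzyme gene Tkt (6.42 CPM) and Mcm3 (3.07 CPM). Control 4 stood apart for the activin receptor gene Acvr1b (19.96 CPM), Col6a3 (23.3 CPM), the gluconeogenic Fbp2 (19.8 CPM), Atf5 (50.5 CPM), the summed T cell markers (0.624 CPM) and the share of counts held by the 50 most abundant genes (58.3%). Control 1 did so for Hadhb (438 CPM), Hsph1 (30.6 CPM), Thrsp (9.20 CPM) and Ucp1 (0.138 CPM, the other controls at 0), and control 3 for Doc2b (0.407 CPM) and Pecam1 (77.3 CPM).

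The effect of CR differed between SkM and BAT, by the interaction term of edgeR's quasi-likelihood test, for 1089 genes in all, of which the 8 with a difference printed in the report are given. On the log2 scale (effect in SkM minus effect in BAT) the difference was 3.70 ± 0.27 for Glb1l2 (adjusted p = 1.79e-06), 4.01 ± 0.30 for the adenosine receptor gene Adora1 (adjusted p = 1.79e-06) and 3.03 ± 0.22 for the ciliary neurotrophic factor receptor gene Cntfr (adjusted p = 1.79e-06). It was 2.43 ± 0.25 for Foxo1 (adjusted p = 8.67e-05), 2.22 ± 0.17 for Apoe (adjusted p = 1.79e-06) and 1.86 ± 0.14 for the purine enzyme gene Gmpr (adjusted p = 1.79e-06). Both fibrillar collagen genes had a more negative effect in SkM, with -1.18 ± 0.23 for Col3a1 (adjusted p = 0.00558) and -1.05 ± 0.25 for Col1a1 (adjusted p = 0.0170).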

How the results depend on the processing

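DESeq2 gave 1439 CR DEGs in place of 1264, and RLE normalization gave 1276. Testing every detected gene gave 1495, a minimum of 10 counts per library 1090, and 1 fit over all SkM groups 1163. The score of slow fibre markers as a covariate gave 1263 (1070 shared with those without it), and removal of the counts of the mitochondrial genome, chosen after seeing the data, 1246. Leaving out 1 mouse at a time gave 928 to 1377 CR DEGs (407 to 683 upregulated, 510 to 694 downregulated). The adipocyte marker score as a covariate, also chosen after seeing the data, left 554 DEGs, 281 upregulated and 273 downregulated, of which 490 were among the DEGs without it. This fit spends 1 more degree of freedom on 7 libraries, and the cause of the drop was not tested further. Of the 198 called genes named in the text, 106 kept their call under every setting in which they could be tested, 82 of them under all 18, and none of those lost reversed its sign. 72 lost it under the adipocyte score and are, except Car3, named beside their values. Of these, 58 kept a change above the fold minimum and 14 did not, and the median ratio of the log2 fold change to that without the score was 0.861. 51 lost it without at least 1 mouse, 16 with the replicate number as a block, 30 in 1 fit over all SkM groups (Cyp2e1 and those named beside their values), 12 under the slow fibre score, 3 under DESeq2 (Cnn1, Dio2, Nlrc5) and 0 under RLE. Counts of called members of the gene lists stayed within 1.5 times in 1456 of 1726 recalculations.

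CREX against EX gave 1163 DEGs and 343 to 2570 when 1 mouse was left out, with the fewest without CREX 2 and the most without CREX 1. The interaction of CR and training gave 0 genes, 669 at an unadjusted p under 0.05, 1 in DESeq2 and 0 to 182 when 1 mouse was left out (182 without CREX 1, 1 without CR 1, 0 in the other cases). The difference of the CR effect between SkM and BAT gave 1089 genes, 1636 in DESeq2, 3336 unadjusted and 663 to 1424 when 1 library was left out (fewest without BAT control 2, 683 without BAT control 3, 721 without SkM control 2). The cause of these changes was not tested.

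With the replicate number as a block (replicate block), CR gave 1331 DEGs (584 up, 747 down), CREX against EX 646, the interaction 0 and the tissue difference 758. CR and control libraries of the same number had correlated deviations of 0.306, 0.152 and -0.0205, and CR 2 and CR 3 correlated best with control 4 (0.178 and 0.238) and not with their own number, so that the numbers were not taken as pairs. A gene without a call is not shown to be unchanged.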

Other observations

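Antioxidant and detoxification enzymes moved in both directions. The list had 6 upregulated and 2 downregulated members of 41 tested (median log2 fold change -0.00473). Of all genes, 4.27% were upregulated and 5.32% downregulated, and the downregulated share of the list was close to the latter. Of the metal-binding metallothioneins, which glucocorticoids are known to induce, Mt1 rose from 28.7, 15.8, 18.7 and 14.8 to 63.5, 26.4 and 37.9 CPM (1.14 ± 0.31, adjusted p = 0.0420) and Mt2 from 7.27, 1.86, 2.40 and 3.53 to 13.95, 8.18 and 13.5 CPM (1.66 ± 0.40, adjusted p = 0.0257). In both genes control 1 was by far the highest control, and for Mt1 it lay above CR 2. Gpx3, the secreted glutathione peroxidase, rose from 309.6, 227, 255 and 253 to 531, 350.2 and 329 CPM (0.63 ± 0.18, adjusted p = 0.0460). Gsta3, a transferase abundant in liver, stood at 0.0460, 0.279, 0 and 0.0832 CPM in the controls and 2.85, 4.39 and 5.38 CPM in the CR libraries (5.32 ± 0.49, adjusted p = 0.000229), with its lowest CR value in CR 1 as for Alb. The CR and control libraries did not overlap for Gpx3 and Gsta3. Mt1 was no longer called without CR 1, CR 3, control 2, control 3 or control 4 (log2 fold change 0.72 to 1.21, adjusted p = 0.0706 to 0.138), Mt2 without CR 1, CR 3, control 3 or control 4 (log2 fold change 1.49 to 1.62, adjusted p = 0.0622 to 0.121) and Gpx3 without CR 1, CR 2, control 2, control 3 or control 4 (log2 fold change 0.37 to 0.73, adjusted p = 0.0554 to 0.134). Mt1, Mt2 and Gpx3 were not called with the adipocyte score as a covariate, nor Mt1, Mt2 or Gpx3 in 1 fit over all SkM groups, nor Mt1 or Mt2 without a filter on low counts.

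Chaperones and sensors of ER stress gave few calls, and the median log2 fold change of that list was 0.09. Chac1, which degrades glutathione and is a late target of the stress factor CHOP, rose from 40.7, 41.0, 57.1 and 50.7 to 113, 101 and 62.5 CPM (0.97 ± 0.20, adjusted p = 0.0108). Ppp1r15a, the phosphatase subunit that ends the block of translation under stress, fell from 31.6, 38.95, 37.6 and 34.1 to 26.5, 17.2 and 21.96 CPM (-0.69 ± 0.15, adjusted p = 0.0136), and Atf5, a stress-induced transcription factor, from 40.9, 41.4, 40.9 and 50.5 to 27.6, 23.99 and 31.1 CPM (-0.65 ± 0.13, adjusted p = 0.00784). Of the cell cycle genes, the mitotic kinase Aurka fell from 5.24, 7.73, 6.29 and 5.32 to 3.12, 2.77 and 1.72 CPM (-1.28 ± 0.22, adjusted p = 0.00493), and the replication helicase subunit Mcm3 rose from 2.44, 3.07, 2.53 and 2.50 to 5.31, 4.90 and 3.89 CPM (0.84 ± 0.17, adjusted p = 0.00904). Fos, a classical immediate early gene, fell (2.76, 8.05, 9.86 and 5.57 against 2.98, 1.38 and 2.33 CPM, -1.55 ± 0.41, adjusted p = 0.0321), although control 1 lay below CR 1. Ppp1r15a was no longer called without CR 2 (log2 fold change -0.55, adjusted p = 0.0407), Atf5 without CR 2 or control 4 (log2 fold change -0.56 to -0.58, adjusted p = 0.0166 to 0.0300) and Fos without CR 1, CR 2, CR 3, control 2, control 3 or control 4 (log2 fold change -1.28 to -1.82, adjusted p = 0.0579 to 0.106). Chac1, Aurka, Mcm3 and Fos were not called with the adipocyte score as a covariate, nor Chac1 in 1 fit over all SkM groups, nor Fos without a filter on low counts. Chac1, Atf5 and Fos also lost the call with the replicate number as a block.

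Markers of further cell types showed few calls. The summed level of 8 Schwann cell markers, of which 0 were called, ranged from 43.6 to 187 CPM in the controls and from 51.9 to 233 CPM in the CR mice. The erythroid list, with 0 of 5 tested genes called, summed to 661 to 916 CPM in the controls against 1698, 735 and 775 CPM in the CR libraries, so that CR 1 alone stood out. Among tenocyte markers 1 of 5 tested was called, Thbs4. Among smooth muscle and pericyte markers 1 of 10 was called, the contractile gene Cnn1 (1.15, 1.02, 1.45 and 1.21 against 0.834, 0.553 and 0.382 CPM, -1.04 ± 0.31, adjusted p = 0.0479). The brown fat marker Ucp1 was at 0 counts in 6 of the 7 libraries, and Dio2, a deiodinase of the same list, fell from 0.552, 0.977, 0.588 and 0.707 to 0.395, 0.119 and 0.229 CPM (-1.51 ± 0.42, adjusted p = 0.0405). Cnn1 was no longer called without CR 2, CR 3, control 1, control 2, control 3 or control 4 (log2 fold change -0.80 to -1.11, adjusted p = 0.0747 to 0.144) and Dio2 without CR 2, CR 3, control 2, control 3 or control 4 (log2 fold change -1.17 to -1.58, adjusted p = 0.0705 to 0.134). Cnn1 and Dio2 were not called with the adipocyte score as a covariate, nor Cnn1 or Dio2 in 1 fit over all SkM groups, nor Cnn1 with the slow fibre score. Cnn1 and Dio2 also lost the call with the replicate number as a block.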
